A study of Mus musculus with 6 samples.

Results

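The core clock and PAR bZIP output genes are Clock, Arntl (which encodes BMAL1), Per1, Per2, Per3, Cry1, Cry2, Dbp, Tef and Hlf, and they were taken by symbol from the deposited gene counts of mouse brown adipose tissue (BAT). All 10 were found among the 35976 genes of the table, and all 10 passed the filter on low counts, which left 13007 genes to test. BAT was taken from Cars2 adipose knockout (AKO) mice, made by crossing Cars2-floxed mice with an Adiponectin-Cre line, and from wild type (WT) littermates, after 4 h at 4 °C, with 3 libraries per group. Adiponectin-Cre deletes in all fat cells and not in the vascular, immune, nerve or muscle cells that BAT samples also hold. Every mouse of both groups was exposed to cold, so no value here is from an unexposed animal. The labels call the controls wild type, and the study's text calls the wild type controls of its AKO mice Flox. The study's methods name male mice for the chow and high-fat diet experiments and an age of 8 to 28 weeks over all experiments, with no age for the mice of each library and no hour of harvest. The labels name a tissue sample per library and do not say which share a litter or a cage, so p-values measure the spread between these libraries.

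The mammalian clock is a loop in which CLOCK and BMAL1 bind E-box sequences and switch on the Per and Cry genes, whose proteins then return to the nucleus and block CLOCK and BMAL1. A second loop of REV-ERB repressors and ROR activators sets the transcription of Arntl, and the PAR bZIP factors DBP, TEF and HLF carry the rhythm to genes with D-box sequences, where the repressor NFIL3 opposes them. In BAT the clock is known to shape daily heat production, and the level of most of these mRNAs swings over the day, so levels depend on the hour of harvest.

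The libraries held between 6540619 and 8461685 counts and 17714 to 18862 detected genes, and Cars2, the deleted gene, was at 220, 248 and 132 CPM (counts scaled to library size with trimmed mean of M-values, TMM, factors) in AKO libraries, against 786, 459 and 632 CPM in WT libraries (log2 fold change -1.64 ± 0.23 SE, adjusted p = 0.000192, edgeR quasi-likelihood test). A count of 1 was worth 0.120 to 0.142 CPM. Ucp1, which marks brown adipocytes, was at 6435, 4372 and 3154 CPM in AKO libraries, against 15622, 15108 and 14006 CPM in WT libraries, so the labelled tissue's defining marker was high in every library. Markers of several cell types differed between the groups. In the same fit 20.2% of all genes tested were higher and 17.5% lower at an adjusted p under 0.05. Summed over 10 brown adipocyte markers, AKO libraries held 11758 to 18102 CPM and WT libraries 28789 to 31761 CPM, with 7 of the 10 lower and 1 higher. All 15 macrophage markers rose (1071 to 1531 CPM summed in AKO, 248 to 310 CPM in WT, Trem2 at 0 in WT replicates 2 and 3), as did all 16 skeletal muscle markers (1204 to 2495 CPM in AKO, 146 to 614 CPM in WT) and 6 of 7 fibroblast markers (1623 to 2051 CPM in AKO, 583 to 905 CPM in WT). Of the endothelial markers 2 of 8 rose and 2 fell (881 to 917 CPM summed in AKO, 876 to 962 CPM in WT), and of the Schwann cell markers 2 of 5 fell (77.1 to 106 CPM in AKO, 130 to 178 CPM in WT). Of 8 lymphocyte markers (5.76 to 19.4 CPM summed in AKO, 2.04 to 5.88 CPM in WT) only Cd4 was tested, and it rose. Cd4 had 26, 17 and 28 counts in AKO libraries, against 13, 3 and 6 in WT libraries. Cd4 and Trem2 passed the low-count filter through the AKO libraries, where they are high, so their rise is a description only. In bulk tissue, fewer cells of a type and less RNA per cell cannot be told apart, and the part of these shifts in the clock gene values was not tested.

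Promoter sequence bears on how these genes are wired, so the stretches below show the clock-related motifs in the members' promoter windows (250 bases before to 50 bases after each start, RefSeq, GRCm38.p6). Windows were at hand for 9 of the 10 members, 14 windows in all, and Per2 had none. The motifs searched on both strands were the E-box CACGTG, the D-boxes TTATGTAA and TTACGTAA, the ROR element cores TAGGTCA and TGGGTCA, the cAMP response element TGACGTCA and the ATF4 site TGATGCAA. Sequences are on the gene's strand, and capitals mark the motif.
Cry1, chr10:85185059-85185164, minus strand, E-box 60 bases upstream: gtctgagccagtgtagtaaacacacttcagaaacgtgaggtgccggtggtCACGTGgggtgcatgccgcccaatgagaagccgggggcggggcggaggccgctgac
Tef, chr15:81802496-81802601, plus strand, E-box 127 bases upstream of the first start: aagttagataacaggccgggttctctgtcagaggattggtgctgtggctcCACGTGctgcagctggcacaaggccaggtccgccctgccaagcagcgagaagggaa
Tef, chr15:81811226-81811331, plus strand, E-box 138 bases upstream of the other start: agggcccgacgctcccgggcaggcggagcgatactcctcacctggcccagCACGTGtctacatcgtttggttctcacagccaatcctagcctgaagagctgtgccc
Per1, chr11:69098733-69098838, plus strand, E-box 166 bases upstream of the first RefSeq start, which lies inside the gene as GENCODE draws it: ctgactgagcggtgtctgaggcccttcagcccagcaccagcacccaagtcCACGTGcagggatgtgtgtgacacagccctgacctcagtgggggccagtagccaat
Per3, chr4:151044813-151044915, minus strand, D-boxes 205 and 158 bases upstream: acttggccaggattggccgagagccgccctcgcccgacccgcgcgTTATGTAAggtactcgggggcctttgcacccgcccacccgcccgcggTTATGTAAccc
Arntl, chr7:113207530-113207559, plus strand, ROR core at base 31 after the start: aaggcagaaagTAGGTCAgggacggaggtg
Hlf, chr11:90390918-90390976, minus strand, cAMP response element 9 bases upstream: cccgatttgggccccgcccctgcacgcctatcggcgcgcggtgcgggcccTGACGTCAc

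The E-box stood in a window of 3 of the 9 members, Cry1, Tef and Per1, against 8.09% of all 27025 genes with a window. The D-box of Per3 was matched in 1.23% of these genes, the ROR core of Arntl in 7.35% and the cAMP response element of Hlf in 2.03%. The ATF4 site was in no member's window and in those of 1.03% of genes. No match overlapped one of another motif. Of the 3 members with an E-box, Cry1 and Tef fell in AKO BAT and Per1 did not pass the test (values below). Clock, which also fell, had no E-box in its 3 windows. Arntl, Per3, Cry2, Dbp and Hlf, which did not pass the test, had none either. A match is a description of letters in the window, and no binding was measured.

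Of the 10 genes, 3 fell in AKO BAT (Clock, Cry1 and Tef), 0 rose and 7 did not pass the test at an adjusted p under 0.05 (edgeR quasi-likelihood test, Benjamini-Hochberg over 13007 genes). At an unadjusted p under 0.05 the same 3 were past the threshold, and DESeq2 also called 3 lower and 0 higher. In the same comparison 37.6% of all genes tested were called, 20.2% higher and 17.5% lower, so 3 of 10 members was not more than the table as a whole gave. The groups' libraries did not overlap for the same 3 members, against 50.1% of all genes. The median log2 fold change of the 10 was -0.19, against 0.01 over all genes tested. The 10 genes together held 417 to 472 CPM in AKO libraries, against 545 to 607 CPM in WT libraries. These sums include the 3 called genes, of which Tef alone had means of 84.1 CPM in AKO and 165 CPM in WT. The members did not move as a block: an activator, a repressor and an output gene were lower, while another member of each of these roles showed no call.

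**Figure D1:**
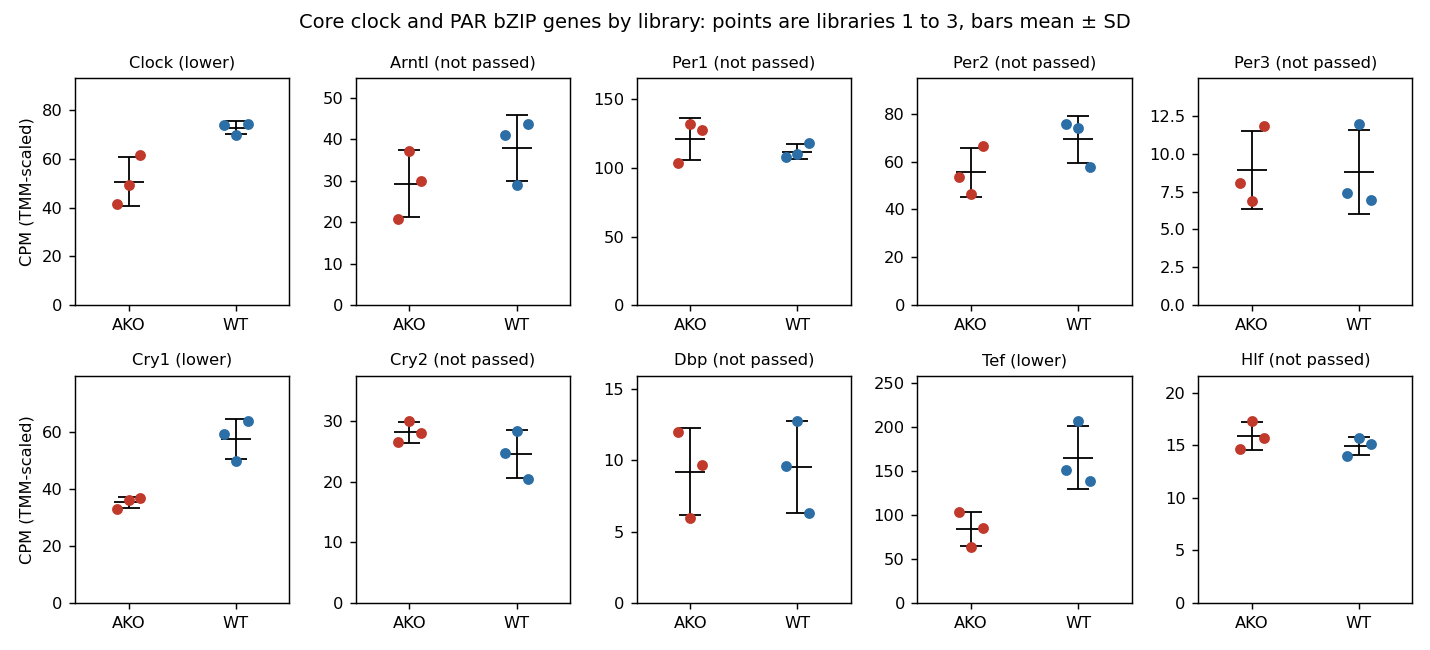
CPM (TMM-scaled, linear axes from 0) of the 10 genes in each library, AKO left of WT, with points for libraries 1 to 3 and bars for the mean ± SD (n = 3). The AKO points lie below every WT point for Clock, Cry1 and Tef, and the groups overlap for the other 7 genes.

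Clock (chr5:76209868-76304792, GRCm38, as are all positions here), which encodes a DNA-binding subunit of the activator, was at 41.5, 49.0 and 61.4 CPM in AKO libraries, against 74.0, 69.6 and 74.3 CPM in WT libraries. The WT libraries lay close together, the AKO libraries spread more widely, and every AKO library was lower. The means were 50.6 ± 10.02 CPM in AKO and 72.6 ± 2.60 CPM in WT (SD, n = 3 each), 69.6% of the WT level in the fit (log2 fold change -0.52 ± 0.14 SE, adjusted p = 0.0129, edgeR quasi-likelihood test). With library totals in place of the scaling factors the log2 fold change was -0.42 and did not pass (adjusted p = 0.0526), and over 14 alternatives the adjusted p ran from 0.000814 to 0.0526.

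Arntl (chr7:113207465-113314126) encodes BMAL1, the partner of CLOCK. It was at 20.9, 37.1 and 29.9 CPM in AKO libraries, against 41.0, 28.9 and 43.7 CPM in WT libraries, so the groups overlapped. WT replicate 2 lay below AKO replicates 2 and 3. The log2 fold change was -0.37, with a 95% interval of -0.82 to 0.07 (adjusted p = 0.174, edgeR quasi-likelihood test). Without AKO replicate 2 it was -0.59 and passed (adjusted p = 0.0426), and without AKO replicate 1 it was -0.17 (adjusted p = 0.492). The count ratio of Arntl to Clock within a library was 0.503, 0.756 and 0.487 in AKO and 0.554, 0.415 and 0.588 in WT, which overlapped (exact permutation test, two-sided, p = 0.60).

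Per1 (chr11:69095217-69109960), Per2 (chr1:91415982-91459324) and Per3 (chr4:151003652-151044665) encode the PERIOD repressors, and Per1 and Per2 are also known as genes that light, cAMP and glucocorticoid signals induce quickly. Per1 was at 103, 132 and 127 CPM in AKO libraries, against 108, 110 and 118 CPM in WT libraries. The log2 fold change of Per1 was 0.11 with a 95% interval of -0.17 to 0.39 (adjusted p = 0.524, edgeR). Per2 was at 53.6, 46.5 and 66.5 CPM in AKO libraries, against 75.8, 74.1 and 57.9 CPM in WT libraries. WT replicate 3 was lower than AKO replicate 3, while the other WT libraries were above every AKO library. The log2 fold change of Per2 was -0.32 with an interval of -0.66 to 0.01 (adjusted p = 0.121, edgeR). Without AKO replicate 3 it was -0.46 and passed (adjusted p = 0.0423, edgeR).

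Per3, the least expressed of the PER genes, was at 8.04, 6.86 and 11.8 CPM in AKO libraries, against 7.43, 12.0 and 6.97 CPM in WT libraries. The groups covered the same range, with 1 high library in each. Its log2 fold change of 0.01 had a 95% interval of -0.56 to 0.58 and rested on 51 to 94 counts per library. The sign of the Per3 estimate turned in 4 of the 14 alternatives. Within a library the count ratio of Per1 to Per2 was 1.93, 2.84 and 1.91 in AKO and 1.42, 1.48 and 2.04 in WT, and overlapped (exact permutation test, p = 0.30).

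Cry1 (chr10:85131700-85185064) and Cry2 (chr2:92403646-92434043) encode the cryptochromes, the potent repressors of CLOCK and BMAL1. Cry1 was at 33.0, 36.1 and 36.6 CPM in AKO libraries, against 59.0, 49.5 and 63.5 CPM in WT libraries. The AKO libraries lay within a narrow band, below every WT library. The means were 35.2 ± 1.94 CPM in AKO and 57.3 ± 7.14 CPM in WT (SD, n = 3 each), 61.4% of the WT level in the fit (log2 fold change -0.70 ± 0.13 SE, adjusted p = 0.00130, edgeR quasi-likelihood test). Cry1 passed in all 14 alternatives, with log2 fold changes from -0.81 to -0.61.

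Cry2 was at 26.5, 30.0 and 28.04 CPM in AKO libraries, against 24.8, 28.4 and 20.5 CPM in WT libraries. The log2 fold change was 0.20 with a 95% interval of -0.13 to 0.52 (adjusted p = 0.326, edgeR), and the groups overlapped. Cry1 and Cry2 were therefore also set against each other within each library, where scaling cancels. The count ratio of Cry1 to Cry2 was 1.24, 1.20 and 1.305 in AKO libraries, against 2.38, 1.74 and 3.10 in WT libraries. Every AKO ratio was below every WT ratio, a mean log2 difference of -0.91. The exact permutation test gave p = 0.10, the smallest that 20 arrangements of 3 against 3 allow, and 0.25 after Benjamini-Hochberg adjustment over 10 ratios, so the ratios could not pass at this size.

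Dbp (chr7:45705088-45710203), Tef (chr15:81802421-81826863) and Hlf (chr11:90336536-90390895) encode the PAR bZIP activators of D-box genes, which in liver and kidney are known to drive detoxification enzymes. Tef was at 103, 64.2 and 84.8 CPM in AKO libraries, against 152, 207 and 138 CPM in WT libraries. It had the largest change of the 10 genes, and the highest AKO library was below the lowest WT library. The means were 84.1 ± 19.6 CPM in AKO and 165 ± 36.1 CPM in WT (SD, n = 3 each), 50.8% of the WT level in the fit (log2 fold change -0.98 ± 0.19 SE, adjusted p = 0.00149, edgeR quasi-likelihood test). Tef passed in all 14 alternatives, with log2 fold changes from -1.15 to -0.79.

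Dbp was at 12.0, 5.97 and 9.68 CPM in AKO libraries, against 9.59, 12.7 and 6.28 CPM in WT libraries. The groups covered the same range, and the log2 fold change of -0.05 had a 95% interval of -0.67 to 0.57 (adjusted p = 0.906, edgeR). Its sign turned in 5 of the 14 alternatives. Dbp shares 539 exon bases, 18.0% of its exons, with Sphk2 on the opposite strand, and its counts are uncertain because the sources read here do not state whether counting used strand. The same holds for smaller stretches of Cry2 (295 bases, 4.67%) and Tef (193 bases, 2.45%), which overlap noncoding genes. Hlf was at 14.6, 17.3 and 15.7 CPM in AKO libraries, against 14.0, 15.7 and 15.2 CPM in WT libraries. The log2 fold change of Hlf was 0.09 with an interval of -0.25 to 0.42 (adjusted p = 0.701, edgeR), so a fall as large as that of Tef lay outside its interval.

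Within a library, Tef counts were 7.06, 3.71 and 5.42 times Hlf counts in AKO and 10.8, 13.2 and 9.13 times in WT. Tef counts were 8.61, 10.7 and 8.76 times Dbp counts in AKO, against 15.8, 16.2 and 22.0 times in WT. Neither pair of groups overlapped, and both gave the smallest exact permutation p of 0.10 (0.25 adjusted over 10 ratios), with mean log2 differences of -1.06 and -0.93. The ratio of Hlf to Dbp overlapped between the groups (exact permutation test, p = 0.70).

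**Figure D2:**
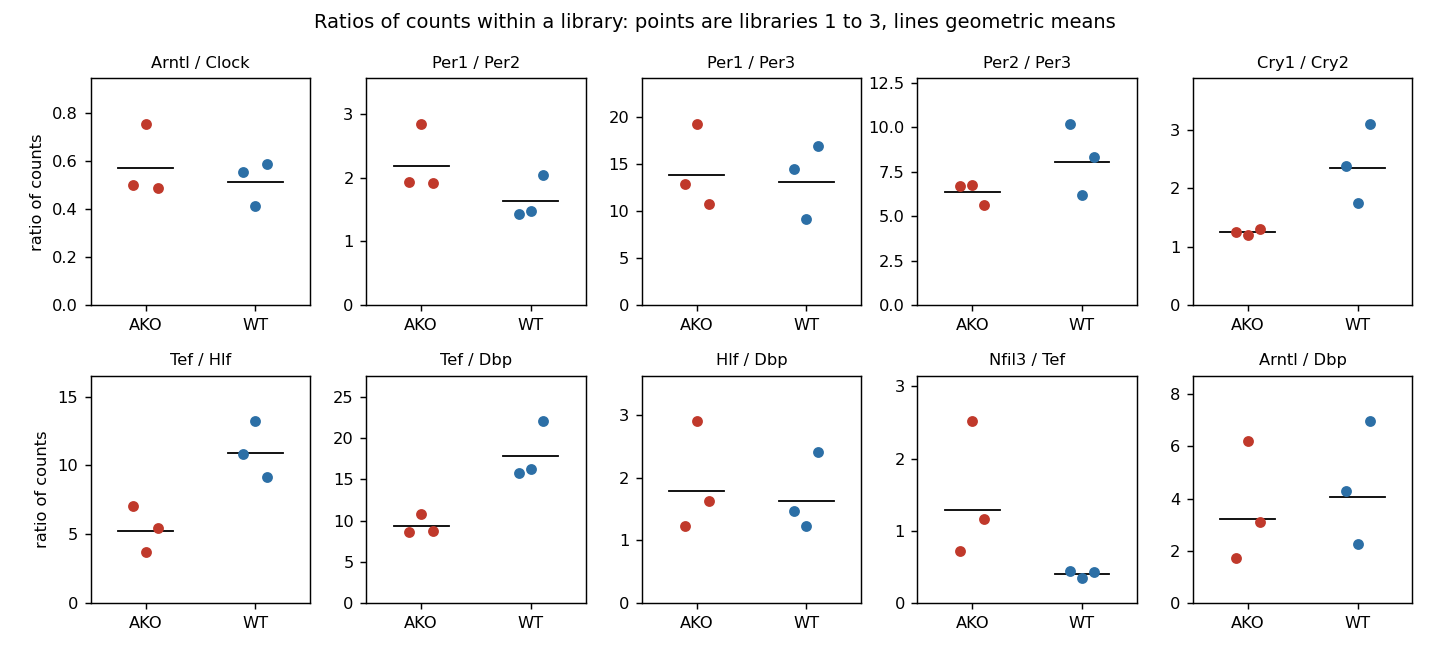
Ratio of the counts of 2 genes within each library, AKO left of WT on linear axes from 0, with points for libraries 1 to 3 and lines for geometric means. Cry1 to Cry2, Tef to Hlf and Tef to Dbp are lower and Nfil3 to Tef is higher in each AKO library than in each WT library, and the other 6 ratios overlap. The separation of Nfil3 to Tef follows from the levels of these 2 genes.

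Per kilobase of exon, the genes' levels spanned a wide range in both groups. In AKO libraries the mean was 21.5 CPM per kilobase for Per1, 10.7 for Tef, 10.5 for Cry1, 9.48 for Per2, 4.46 for Cry2, 3.89 for Arntl, 3.69 for Clock, 3.08 for Dbp, 2.37 for Hlf and 0.927 for Per3. In WT libraries it was 21.0 CPM per kilobase for Tef, 19.9 for Per1, 17.2 for Cry1, 11.8 for Per2, 5.29 for Clock, 5.03 for Arntl, 3.89 for Cry2, 3.19 for Dbp, 2.24 for Hlf and 0.915 for Per3. Tef was thus the top gene by mean in WT, where its range of 17.6 to 26.3 CPM per kilobase took in the whole range of Per1, and in AKO it stood below Per1 in every library, at 8.15 to 13.1 against 18.3 to 23.5 CPM per kilobase. Per3 was below all other members in every library. Neighbours whose ranges overlapped were Tef, Cry1 and Per2 in AKO, as were Cry2, Arntl, Clock and Dbp, and Dbp and Hlf. In WT the overlapping neighbours were Tef and Per1, Clock and Arntl, Arntl and Cry2, Cry2 and Dbp, and Dbp and Hlf.

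The REV-ERB and ROR genes act on Arntl. Nr1d1, the REV-ERBα repressor, whose exons share 263 bases with Thra on the opposite strand, was at 120, 51.6 and 52.4 CPM in AKO libraries, against 60.7, 58.3 and 44.1 CPM in WT libraries. A single AKO library was high, and the log2 fold change of 0.46 (adjusted p = 0.201, edgeR) was -0.06 without AKO replicate 1. Nr1d2, the REV-ERBβ repressor, was at 51.1, 39.6 and 56.4 CPM in AKO and 45.4, 58.6 and 38.1 CPM in WT (log2 fold change 0.05, adjusted p = 0.851, edgeR). Rora, the RORα activator, was at 15.0, 23.8 and 25.5 CPM in AKO and 18.1, 15.0 and 18.4 CPM in WT (log2 fold change 0.31, adjusted p = 0.232, edgeR), and passed at 0.52 without AKO replicate 1. Rorb had at most 5 counts in any library and was not tested.

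There were 7 other clock transcription factors, of which 3 rose and 1 fell, against 20.2% and 17.5% of all genes tested. The other 3 missed the threshold, and the median log2 fold change of the 7 was 0.62. Bhlhe40 encodes DEC1, an E-box repressor that competes with CLOCK and BMAL1. It was at 71.0, 60.0 and 73.3 CPM in AKO libraries, against 20.6, 42.3 and 36.5 CPM in WT libraries, with no overlap (log2 fold change 1.04 ± 0.21 SE, adjusted p = 0.00197, edgeR). Nfil3, the D-box repressor that opposes the PAR bZIP factors, was at 74.9, 161 and 98.8 CPM in AKO libraries, against 66.8, 71.7 and 59.3 CPM in WT libraries. AKO replicate 2 stood far above the rest, and the log2 fold change of 0.76 ± 0.22 SE (adjusted p = 0.0166, edgeR) was 0.39 without it (adjusted p = 0.0669) and 0.68 without WT replicate 3 (adjusted p = 0.0666). The count ratio of Nfil3 to Tef was 0.725, 2.51 and 1.16 in AKO libraries, against 0.441, 0.347 and 0.428 in WT libraries. Every AKO ratio was above every WT ratio (mean log2 difference 1.67, exact permutation p = 0.10, the smallest possible, 0.25 adjusted over 10 ratios). Nfil3 was higher and Tef lower in each AKO library than in each WT library. The ratio therefore had to separate the groups, and its test adds nothing to the calls of Nfil3 and Tef.

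Arntl2, a paralog of Arntl, was at 7.20, 4.70 and 4.13 CPM in AKO libraries, against 2.04, 2.80 and 3.82 CPM in WT libraries (log2 fold change 0.90 ± 0.31 SE, adjusted p = 0.0357, edgeR). Its call was lost without WT replicate 1 (0.70), WT replicate 2 (0.88) or AKO replicate 1 (0.63), and with DESeq2. Cipc, a repressor that binds CLOCK, was at 50.8, 41.9 and 54.7 CPM in AKO libraries, against 56.1, 69.6 and 73.5 CPM in WT libraries (log2 fold change -0.44 ± 0.14 SE, adjusted p = 0.0308, edgeR). It lost its call in 6 of the 14 alternatives, without WT replicate 2 (-0.41), WT replicate 3 (-0.37) or AKO replicate 2 (-0.34) among them. Npas2, a paralog of Clock, was at 2.04, 5.97 and 2.70 CPM in AKO and 8.63, 3.57 and 8.88 CPM in WT. The groups overlapped through AKO replicate 2 and WT replicate 2, and the log2 fold change of -0.97 did not pass (adjusted p = 0.0755, edgeR), but did at -1.57 without AKO replicate 2 and at -1.30 without WT replicate 2. Bhlhe41, which encodes DEC2 and shares 1280 exon bases (19.05%) with Gm43909 on the opposite strand, was at 24.2, 16.4 and 26.9 CPM in AKO and 12.1, 20.6 and 11.1 CPM in WT (log2 fold change 0.62, adjusted p = 0.0600, edgeR), and passed without AKO replicate 2 (0.80) or WT replicate 2 (0.95). Ciart, another repressor of CLOCK and BMAL1, was at 8.04, 5.46 and 13.7 CPM in AKO and 8.39, 11.6 and 9.29 CPM in WT (log2 fold change -0.12, adjusted p = 0.777, edgeR).

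**Figure D3:**
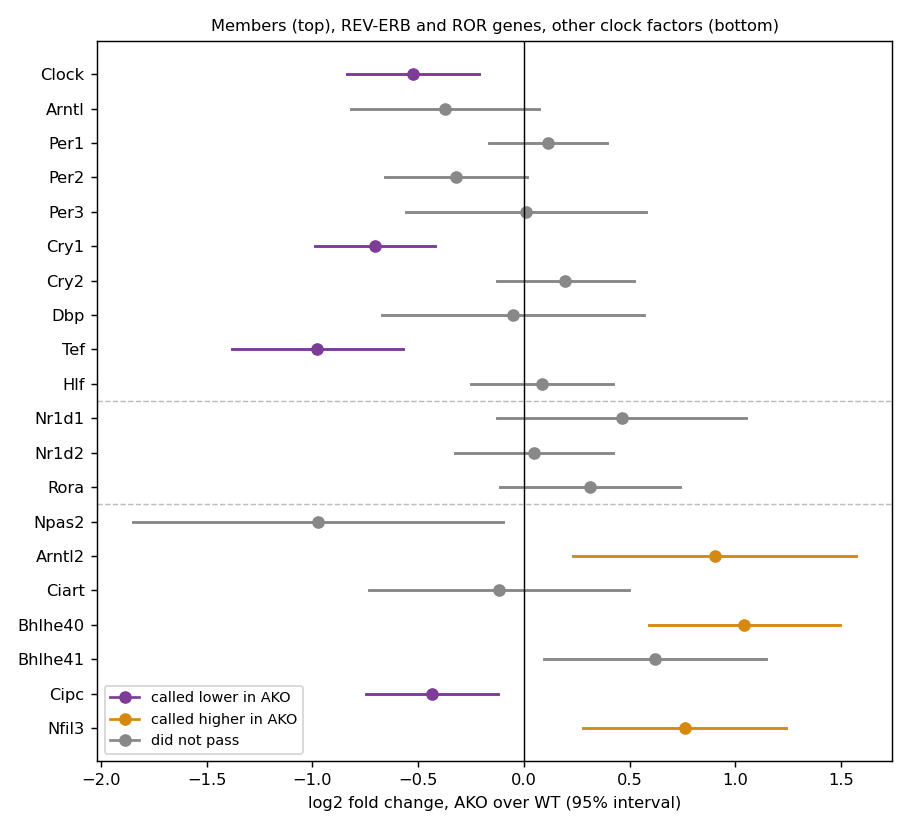
Log2 fold change of AKO over WT with its 95% interval for the 10 genes (top), Nr1d1, Nr1d2 and Rora (middle) and the other clock transcription factors (bottom), from 3 libraries per group. Purple marks genes called lower, orange genes called higher and grey genes that did not pass, and Tef has the lowest value of the 10 at -0.98.

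The stability of clock proteins is set by kinases and ubiquitin enzymes. Of 14 such genes 13 were tested, and 3 fell, against 17.5% of all genes tested, while the other 10 missed the threshold. The median log2 fold change of the 13 was -0.16. Those that fell were Csnk2a1, a casein kinase subunit (log2 fold change -0.39), Fbxw7, a ubiquitin ligase subunit (-0.57), and Usp7, a deubiquitinase (-0.36). Each lost its call in at least 4 of the 14 alternatives, Csnk2a1 without WT replicate 1, WT replicate 3 or AKO replicate 3 (-0.39, -0.35 and -0.38), Fbxw7 without WT replicate 1, WT replicate 3 or AKO replicate 1 (-0.54, -0.54 and -0.42), and Usp7 without any of 5 libraries (-0.38 to -0.27). Of 11 output genes, which follow the clock in several tissues, 1 rose, 3 fell and 7 did not pass. All genes tested gave 20.2% higher and 17.5% lower. The number of output genes that rose was 2 with upper-quartile factors, DESeq2, no filter or a mean of at least 5 CPM. It was also 2 without AKO replicate 1, and 3 with library totals. Nr1i3, the CAR nuclear receptor and a D-box target in liver, fell to 6.48, 6.10 and 5.69 CPM in AKO libraries, against 12.4, 14.6 and 15.7 CPM in WT libraries (log2 fold change -1.22, adjusted p = 0.000346, edgeR). Usp2, a deubiquitinase and a strongly rhythmic gene, was at 37.8, 43.8 and 43.8 CPM in AKO libraries, against 68.1, 91.9 and 61.1 CPM in WT libraries (log2 fold change -0.82, adjusted p = 0.00149, edgeR). Coq10b, a coenzyme Q binding protein gene, fell by 0.66 on the log2 scale, and Tspan4, a tetraspanin gene, rose by 0.96.

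Cold, stress hormones and temperature act on the clock through cAMP, glucocorticoid and heat shock pathways. Of 12 cAMP-responsive immediate early genes, 7 rose, 4 fell and 1 did not pass. Over all genes tested 20.2% were higher and 17.5% lower, the background for each list here. Fos, an AP-1 subunit, was at 25.6, 42.6 and 29.5 CPM in AKO libraries, against 4.32, 1.27 and 5.05 CPM in WT libraries (log2 fold change 3.20, adjusted p = 2.34e-05, edgeR). Atf3, a stress-induced repressor, rose by 2.48 on the log2 scale, Egr1, a zinc finger activator, by 2.27 and Junb, an AP-1 subunit, by 1.55. The 4 that fell, named after their values were seen, were the orphan nuclear receptors Nr4a1 (-0.70), Nr4a2 (-0.62) and Nr4a3 (-0.58) and Crem (-0.48), which encodes cAMP response element modulators. The number of the list that fell was 2 in 7 of the 14 alternatives, among them DESeq2 and the fits that left out AKO replicate 1, AKO replicate 3 or WT replicate 3. Of 11 glucocorticoid-induced genes 4 rose and the other 7 did not pass, and the 4 were Fkbp5, which restrains the glucocorticoid receptor (1.36), the metallothioneins Mt2 (1.37) and Mt1 (0.73), and Zbtb16, a zinc finger repressor (1.06). Without AKO replicate 1, 7 of the 11 rose. Of 10 temperature-responsive genes 4 rose and 3 fell. The heat shock genes Hspa1a (2.16), Hspa1b (1.54) and Dnajb1 (0.73) and the cold-inducible RNA-binding protein gene Cirbp (0.81) were higher, while the chaperone genes Hspa8 (-1.05), Hsp90aa1 (-0.82) and Hsph1 (-0.68) were lower, with Cirbp, Hsp90aa1 and Hsph1 named after their values were seen. Rbm3, of the same list and also named after its value was seen, did not pass (0.26, adjusted p = 0.124, edgeR). Hspa1a and Hspa1b are near-identical copies, so reads may have been split between them.

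Libraries of a group also differed from each other in these genes. The spread of log2(CPM + 1) within groups was 0.46 for Dbp, larger than in 95.8% of all genes tested, 0.37 for Per3 (90.5%), 0.36 for Arntl (89.3%) and 0.32 for Tef (84.4%). It was 0.10 for Hlf (9.26%), 0.14 for Cry1 (26.0%) and 0.14 for Per1 (27.4%). Cry2 at 0.17 (40.8%), Clock at 0.20 (52.7%) and Per2 at 0.23 (65.5%) lay between, so the members ranged from little to much spread. Dbp had 46 to 100 counts per library and Hlf 110 to 136. Arntl, an activator gene, was lowest in AKO replicate 1 and highest in AKO replicate 2, and lowest in WT replicate 2 and highest in WT replicate 3. Dbp and Tef had the reverse order, highest in AKO replicate 1 and lowest in AKO replicate 2. In WT they were highest in replicate 2 and lowest in replicate 3. Other genes that CLOCK and BMAL1 switch on did not share this reverse order. Cry1 was lowest in the same libraries as Arntl, and Per1 was lowest in AKO replicate 1 and highest in AKO replicate 2. Npas2 had the lowest and highest libraries of Arntl. The order of Arntl was shared by 3.66% of all genes tested and the order of Dbp by 3.87%, and these orders were picked out after the values had been looked at. The summed skeletal muscle markers had the same lowest and highest libraries as Arntl, at 1204, 2495 and 2454 CPM in AKO and 585, 146 and 614 CPM in WT, and their part in the order was not tested.

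**Figure D4:**
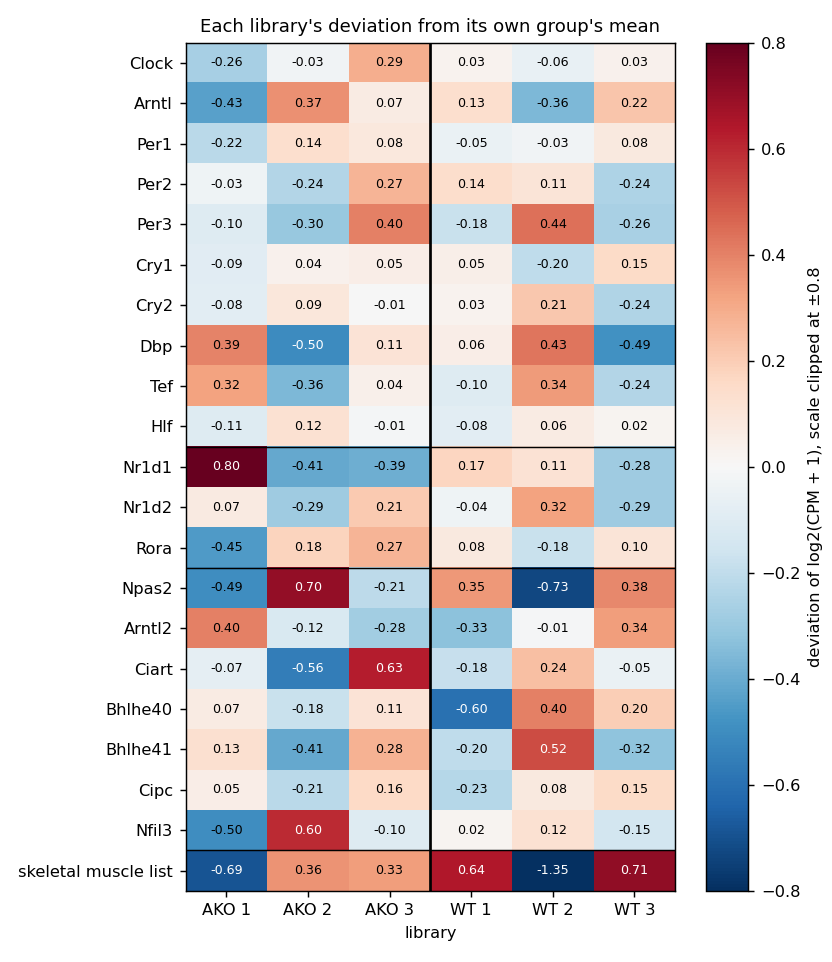
Deviation of log2(CPM + 1) of each gene in each library from the mean of its own group, AKO libraries left of WT libraries, with the summed skeletal muscle markers in the last row and colours ending at 0.8 on either side of 0. Arntl deviates by -0.43 in AKO replicate 1 and by -0.36 in WT replicate 2, where Dbp deviates by 0.39 and 0.43.

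The lowest libraries of Arntl, AKO replicate 1 and WT replicate 2, were also lowest for Clock, Cry1, Rora and Npas2. The lowest libraries of Dbp, AKO replicate 2 and WT replicate 3, were also lowest for Per2, Per3, Tef, Nr1d1, Nr1d2 and Bhlhe41. Of all genes tested, 14.9% had the lowest libraries of Arntl and 12.1% those of Dbp. Among the 20 members and clock factors compared the numbers were 5 and 7, with Arntl and Dbp counted. Some ranks were near ties, such as Nr1d1 at 51.6 and 52.4 CPM in AKO replicates 2 and 3. These libraries were picked by the values of Arntl and Dbp, so the lists are a description. These genes are known to peak at different times of day. The sources read here do not say at which hour each mouse was killed, so a part of the hour in these orders was not tested.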

How the data were processed

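RNA of BAT was sequenced from 3 AKO and 3 WT samples, and the deposited table held whole-number counts per gene that the authors made from their reads. The study's methods name STAR, HTSeq and DESeq2, while the submitters' processing notes name Bowtie2, RSEM 1.3.1, DESeq2 1.4.5 and mm10, so which aligner and counter gave the table, and its strand setting, could not be settled. The table carries 27 rows whose symbols read as dates, none of them a clock gene.

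Counts were fitted in R 4.3.3 with edgeR 4.0.16 (TMM factors, filterByExpr, quasi-likelihood test, genotype as the sole term, Benjamini-Hochberg, threshold 0.05). The filter took out 0.226% of counts. CPM are TMM-scaled. The fit was tested on simulated data. Count ratios were compared by exact two-sided permutation tests, and fold changes have 95% intervals. Exon lengths and positions are GENCODE M21, promoters RefSeq GRCm38.p6. Intervals cover only the spread between libraries. The alternatives were RLE or upper-quartile factors, library totals, DESeq2 1.42.0, limma 3.58.1 (voom), no filter, a mean of at least 5 CPM, a replicate block, and leaving out each library.

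The members and gene lists were chosen with earlier results of these data known. Named are the 10 members, the REV-ERB, ROR and other clock factors, up to 4 called genes with the lowest p from each other clock list, and Cars2. A gene that this rule names is not reported here. Figures were drawn with matplotlib 3.10.9.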

Additional observations from a re-analysis of the deposited data

How the results depend on the processing

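Over 14 alternatives, Cry1 and Tef kept their fall in all and Clock in 13, and no call changed direction. Clock was -0.42 with library totals only (adjusted p = 0.0526), a setting that moved the median of all genes by 0.09 and the share of higher among all calls to 65.2%, against 53.6% with TMM factors. Arntl passed with no low-count filter at -0.41 (adjusted p = 0.0352). Leaving out a library moved Clock between -0.68 and -0.39, Arntl between -0.59 and -0.17, where it passed without AKO replicate 2, and Per2 between -0.46 and -0.21, where it passed without AKO replicate 3. The members called lower numbered 2 to 4. Of 29 other named genes 19 kept their call in every alternative.

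Deviations of same-numbered libraries correlated at -0.02, 0.01 and 0.18, and those of differently numbered libraries at -0.23 to 0.19. With 3 libraries per group this cannot show whether the replicate numbers pair the mice, for example by litter or cage. With a replicate block 2636 genes were higher and 2290 lower, 3 of them members, with Clock at -0.54, Cry1 at -0.70 and Tef at -0.98. With 3 libraries per group, intervals of the low-count genes Dbp and Per3 reach past 0.5 on the log2 scale on either side.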
